A study of Homo sapiens with 10 samples.

Results

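After EGF, 345 of the 2520 HER2 peaks listed in SKBR3 cells overlapped no HER2 peak of the other conditions by even 1 bp, which was 13.7% of the list (95% Wilson interval 12.4 to 15.1%). They were chosen from the deposited peak lists alone, as the SKBR3 EGF peaks with no overlap with a peak of SKBR3 vehicle, BT474 vehicle or BT474 EGF, and they are called SKBR3 EGF-only sites here. The 4 lists together held 43001 peaks. Because overlap chose these sites, their number, score and width are given as descriptions without a test.

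SKBR3 and BT474 are established human breast cancer cell lines that both carry an amplified ERBB2 gene, so every condition started from cells rich in HER2. The cells of each line, kept in serum, received either water as vehicle or EGF at 100 ng/ml for 3 hours, and HER2 was mapped by ChIP-exo with 1 list for each of the 4 conditions and no replicate. The same HER2 antibody was used in both lines, but its lots differed between them. H3K4me1 was mapped by ChIP-seq with 2 replicates for each line, in cells that their labels call asynchronous and that the study's text describes as EGF-treated. Whether the replicates came from separate cultures is not given, so p-values from them measure only the spread between these samples.

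HER2 is a receptor tyrosine kinase of the ERBB family that has no known ligand of its own and signals by pairing with other ERBB receptors, such as EGFR, which binds EGF. It works mainly at the plasma membrane, but the full-length receptor has also been found in the nucleus. In ChIP-exo an exonuclease trims the DNA up to the cross-linked protein, which sharpens a binding site, and H3K4me1 is a histone mark of enhancers and of the flanks of promoters.

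The sequences of a few SKBR3 EGF-only sites show what lay under these peaks, and all are read from the plus strand of GRCh37 over the midpoint and 50 bases to either side. The study named CGTNTGC as a core of its HER2 motif, and the 3 highest-scoring SKBR3 EGF-only sites outside exons that held it on either strand are shown with the core in capitals. A site at SLC35F4 with a score of 122.5 also held it and is not shown, because its midpoint lies in an exon of an annotated transcript as well as upstream of a start site.
ENSG00000286006 (chr20:54380019-54380119): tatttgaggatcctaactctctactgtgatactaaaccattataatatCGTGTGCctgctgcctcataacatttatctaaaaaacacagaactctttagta
RNU1-92P (chr1:149217386-149217486): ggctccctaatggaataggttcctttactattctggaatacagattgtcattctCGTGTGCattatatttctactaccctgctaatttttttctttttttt
TENM2 (chr5:167301042-167301142): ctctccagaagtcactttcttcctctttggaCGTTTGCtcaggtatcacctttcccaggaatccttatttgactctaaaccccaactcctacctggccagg

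The next sequence is that of a site in RIMS1, among the SKBR3 EGF-only sites with the highest scores, which did not hold the core, so no part is capitalised.
RIMS1 (chr6:72875829-72875929): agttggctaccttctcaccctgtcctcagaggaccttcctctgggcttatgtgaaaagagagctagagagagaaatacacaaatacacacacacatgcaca
The RIMS1 sequence holds a run of A and G followed by a run of alternating A and C.

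A different word stood out among the SKBR3 EGF-only sites, the 8 letters AGACGGCA or their reverse complement TGCCGTCT. It was picked after all 8-letter words had been counted in these sites, so its counts are descriptions. The 3 highest-scoring sites that held it outside exons are shown with the word in capitals.
ASB7 (chr15:101148057-101148157): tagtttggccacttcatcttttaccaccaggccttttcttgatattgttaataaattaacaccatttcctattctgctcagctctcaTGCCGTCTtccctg
BRINP1 (chr9:121748385-121748485): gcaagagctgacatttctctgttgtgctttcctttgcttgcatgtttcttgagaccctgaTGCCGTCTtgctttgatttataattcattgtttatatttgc
AHR (chr7:17035533-17035633): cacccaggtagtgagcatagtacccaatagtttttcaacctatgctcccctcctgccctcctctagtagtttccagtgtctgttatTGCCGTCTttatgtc
In all 3 the reverse complement ran along the plus strand, and the peak's midpoint lay on its 5′ side on that strand.

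Few SKBR3 EGF-only sites carried the core. It was found within 50 bp of the midpoint, on either strand, at 7 of the 345 sites (2.03%, interval 0.986 to 4.13%), and at 295 of the 2175 other SKBR3 EGF peaks (13.6%, 12.2 to 15.1%). Windows of the same length centred 1 kb to either side held it in 0.725% (0.310 to 1.68%) of the windows of SKBR3 EGF-only sites, so the interval at the sites reached into that of their windows. The peaks listed only in SKBR3 vehicle held it at 1.24% (0.784 to 1.95%), and those listed only in BT474 EGF at 5.78% (5.47 to 6.11%). Sites that a list shares with no other list thus held the core less often than the shared SKBR3 EGF peaks in each of these sets, and the SKBR3 sets were lowest, with intervals that overlapped each other. The study derived its motif from these same lists. It found the motif in SKBR3 sites with EGF or common to both treatments and in BT474 peaks, but not in SKBR3 sites with vehicle alone. The shares are therefore descriptions.

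The leading word was most frequent at the SKBR3 EGF-only sites among these sets. It stood within 50 bp of the midpoint at 22 SKBR3 EGF-only sites (6.38%, interval 4.25 to 9.47%) and in 0 of their 690 windows 1 kb away, where a count of 0 allows up to 0.554% at the upper end of the interval. Other SKBR3 EGF peaks held it at 1.98% (1.47 to 2.65%), SKBR3 vehicle-only peaks at 0.0687% and BT474 EGF-only peaks at 0.364%. With the fifth letter left free, as AGACNGCA, the word was found at 47 SKBR3 EGF-only sites (13.6%, 10.4 to 17.6%), at 5.66% of the other SKBR3 EGF peaks and in 1.01% of the windows of the SKBR3 EGF-only sites.

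The sites with AGACGGCA were scattered and mostly weak. They lay on 14 chromosomes, their scores ran from 13 to 158.5 with a median of 70.25, and 2 of the 22 lay in an H3K4me1 island of either SKBR3 replicate. Read in the direction in which the word is spelled AGACGGCA, the midpoint of the peak lay 3′ of it at 20 of the 22 sites, by a median of 24 bp over all 22. None of the 22 sites with the word also held the core, which stood at 2.03% of all SKBR3 EGF-only sites, so no contrast can be read from that 0. The letters AGACGGCA also occur in the public P7 primer of Illumina libraries, and a P7 adapter was ligated in this assay. Their part in these peaks was not tested.

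**Figure D1:**
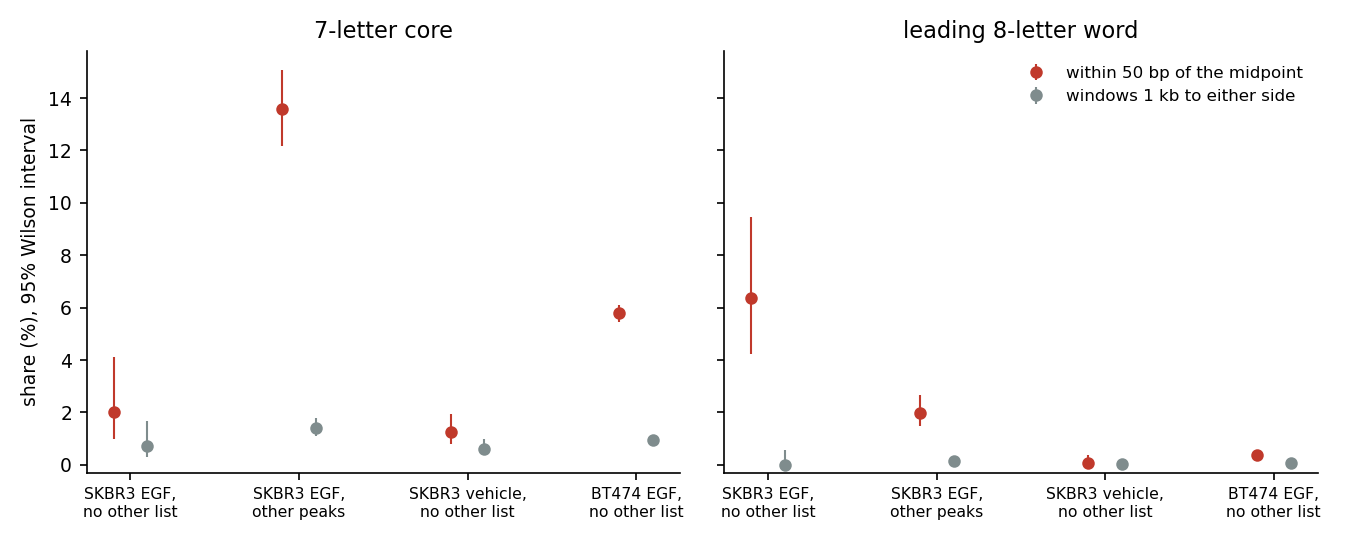
Share of peaks (%, y axis) with the 7-letter core (left) or the leading 8-letter word (right) within 50 bp of the midpoint (red) or in windows 1 kb to either side (grey), for 4 sets of peaks on the x axis, with 95% Wilson intervals. The core was at 2.03% of the SKBR3 EGF-only sites and 13.6% of the other SKBR3 EGF peaks, and the word at 6.38% and 1.98%.

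SKBR3 EGF-only sites were weaker on the whole than the rest of their list, although some ranked high. Scores are the authors' values on a scale that is not stated, and are compared only inside the list. The median score was 82 (quartiles 45.5 to 145.5) against 135.5 (79 to 215) for the other peaks, and the median percentile was 29.7 against 53.0. Of the 10 score deciles of 252 peaks each, the top decile held 28 SKBR3 EGF-only sites, the second and the third held 12 each, those from the fourth to the seventh held 27, 28, 31 and 32, and the lowest held 50, 61 and 64. The 28 in the top decile were 11.1% of its peaks, under the sites' 13.7% share of the whole list. The top 100 ranks held 11 SKBR3 EGF-only sites, and all the sites together held 8.87% of the summed score, both also under that share.

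**Figure D2:**
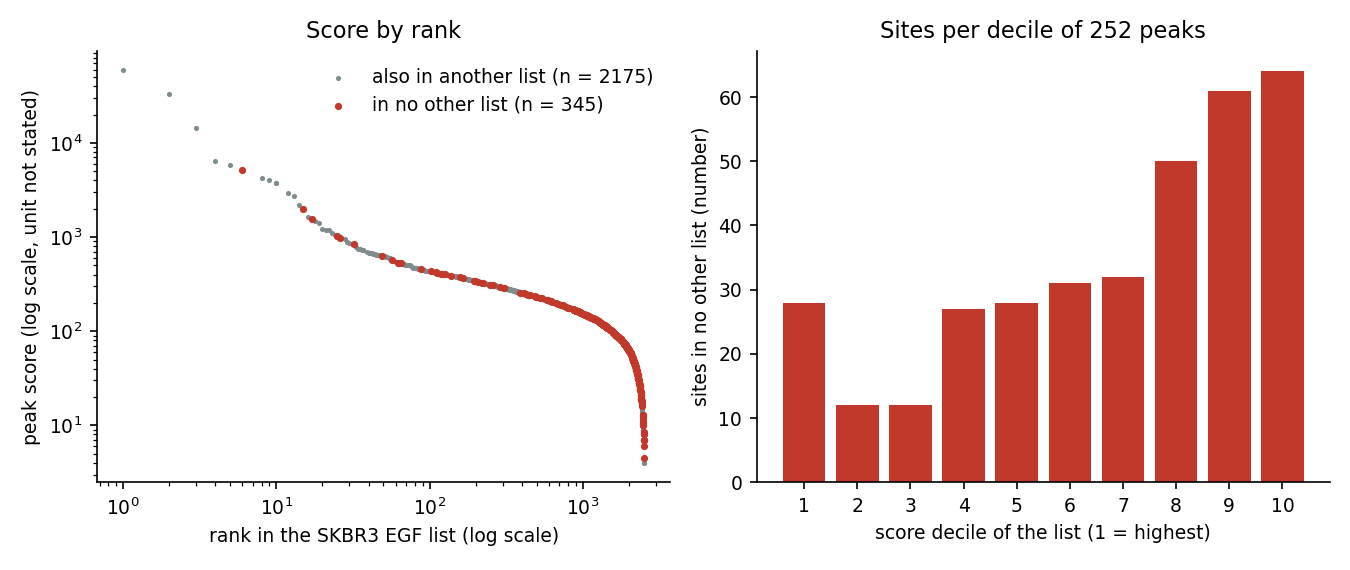
Left, score against rank in the SKBR3 EGF list (both log scales), with the 345 SKBR3 EGF-only sites in red and the 2175 other peaks in grey; right, number of SKBR3 EGF-only sites (y axis) in each score decile of 252 peaks (x axis). The lowest decile held 64 sites (25.4% of its peaks) and the top decile 28 (11.1%), more than the 12 in the second and in the third. The sites were 13.7% of the whole list.

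Their peaks were narrow. The median width was 202 bp (range 6 to 420 bp) against 220 bp (22 to 1178 bp) for the other peaks. Exactly 200 bp was the width of 45.2% of the SKBR3 EGF-only sites and 30.3% of the others, and 3.77% against 11.7% were wider than 300 bp. Widths under 150 bp were seen at 6 SKBR3 EGF-only sites and 9 others, and 3 of these 6 sites were among the 20 highest scores.

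The strongest SKBR3 EGF-only site, rank 6 of the whole list, had a score of 5149.5 in a peak only 12 bp wide, at chr1:156186158-156186169 in an intron of PMF1-BGLAP, a readthrough of the kinetochore gene PMF1 into the osteocalcin gene BGLAP. It had a BT474 EGF peak 0.543 kb away, and its score was tied with that of an SKBR3 EGF peak outside the set. RIMS1, a scaffold of the presynaptic active zone, held the next site, with a score of 2007 at chr6:72875779-72875978. The site in SLC7A9, an amino acid transporter of kidney and gut, scored 1548. An intergenic site on chromosome 2, 10.5 kb from ENSG00000230803, scored 1015 and lay 0.969 kb from a BT474 EGF peak. UNC45B, a myosin chaperone of muscle, held a site 97 bp wide with a score of 970.5, a score it shared with an SKBR3 EGF peak outside the set, and it had a peak of another list 0.258 kb away. So 3 of the 5 strongest sites had a peak of another condition inside 1 kb, although none overlapped.

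The remaining 15 of the 20 highest-scoring sites had scores from 373.5 to 847. They included AGBL3, a cytosolic carboxypeptidase (847), PARD6B, a cell polarity protein (564), SKA2, a spindle and kinetochore protein (453), TIAM1, an exchange factor for RAC (421), CDC27, a subunit of the anaphase-promoting complex (387) and GCNT7, a glycosyltransferase gene (373.5). Introns of CCDC102B (531), SPATA17 (431) and ANKRD60 (405) and of the noncoding genes ENSG00000286046 (635) and ENSG00000286016 (404.5) held others. Pseudogenes were the nearest genes of 3 more, with the site inside PIEZO1P2 (408), 2.99 kb from RAC1P4 (525) and 23.5 kb from AK6P2 (420), and the last lay 59.4 kb from ENSG00000234640 (409). CDC27 has near-identical copies elsewhere in the genome, so the place of its reads is uncertain. Of these 20 sites only PARD6B lay in an H3K4me1 island of SKBR3.

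Close to the threshold the difference between being listed in a single condition and being shared was a matter of a few bases. The SKBR3 EGF-only sites with the smallest gaps were chr22:44983010-44983209 (score 73.5), 23 bp from a BT474 EGF peak, a site in MRPL33 (score 334.5), 55 bp from a BT474 vehicle peak, and one at chr6:90886463-90886662 (score 120), 106 bp from a BT474 EGF peak. Just outside, the smallest overlaps of SKBR3 EGF peaks with another list were 13, 15 and 22 bp. A peak of another list lay within 1 kb of 22 SKBR3 EGF-only sites, within 10 kb of 86 and within 100 kb of 295, with a median gap of 27.6 kb (quartiles 10.1 to 66.5 kb). The median gap was 36.5 kb to the nearest BT474 EGF peak and 288 kb to the nearest SKBR3 vehicle peak, but the BT474 EGF list has 29326 peaks and the SKBR3 vehicle list 2596.

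SKBR3 EGF-only sites fell mostly inside genes and between them, much as the rest of the list did. By their midpoints, 188 (54.5%, interval 49.2 to 59.7%) lay in introns and 123 (35.7%, 30.8 to 40.8%) in intergenic sequence, against 53.0% and 37.6% of the other SKBR3 EGF peaks. Another 10 (2.90%, 1.58 to 5.25%) lay in exons, against 4.74%. The 1 kb upstream of a start site of any annotated transcript held 24 (6.96%, 4.72 to 10.1%), against 4.64% (3.84 to 5.61%), and the intervals of these shares overlapped. For start sites of protein-coding genes alone the shares were 3.19% (11 sites) and 3.08%. GC content within 100 bp of the midpoint had a median of 43.8% at SKBR3 EGF-only sites and 43.3% at the others.

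The 11 sites upstream of protein-coding start sites spanned scores from 19 to 387. The strongest, at chr17:45214532-45214741, lay 27 bp upstream of a transcript of CDC27. PTGIS, the prostacyclin synthase, had a site with a score of 123 at 503 bp, and SLC35F4, a solute carrier, had a site with a score of 122.5 at 463 bp that held the core. The tyrosine kinase gene SRC had a site with a score of 116.5, 932 bp upstream of a transcript that starts inside the gene. FPR2, a formyl peptide receptor, had a site at 885 bp (score 112.5), and NNT, the mitochondrial transhydrogenase, at 775 bp (score 83.5). The others were SCAF11, PPP1R12C, IQCA1L, SMIM22 and DNHD1, with scores from 19 to 39. Those at PPP1R12C, a myosin phosphatase subunit, and SMIM22 lay in H3K4me1 islands of all 4 libraries, the sites at PTGIS and SLC35F4 in 1 SKBR3 library each, and the other 7 in none.

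A start site lay within 10 kb of an SKBR3 EGF-only site for 223 genes, of which 97 code for protein. Of the 223, 16 (7.17%) also had another SKBR3 EGF peak within 10 kb, which was 1.21% of the 1324 genes near those peaks, and these 1324 were 2.05% of all annotated genes. The body of 166 protein-coding genes overlapped a site. Hosts were long genes, with a median of 183 kb, against 148 kb for hosts of the other peaks and 27.3 kb for all 20098 protein-coding genes.

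Several long genes held more than 1 SKBR3 EGF-only site. CTNNA3, an alpha-catenin of adherens junctions and 1851 kb long, held 3, with scores of 158, 121.5 and 7. A pair of sites lay in each of PTPRD and PTPRT, receptor tyrosine phosphatases, CDH4, a cadherin, CLSTN2, a calsyntenin of the synapse, and NTM, a neural adhesion protein, as well as in AGBL3 and CYREN, which overlap on chromosome 7. Among noncoding genes, pairs lay in LINC00595, LINC01440, LINC01524, ENSG00000282863, ENSG00000286016, ENSG00000287122 and ENSG00000287478. These genes were not bare of other peaks. CTNNA3 also held 24 BT474 EGF peaks and CDH4 13, while BT474 EGF peaks were absent from ENSG00000287122, ENSG00000287478, LINC01440 and LINC01524.

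The lists of EGF signalling genes held few sites. None of the 15 genes for ERBB receptors and EGF-family ligands, the 50 other receptor tyrosine kinases, the 61 genes of the RAS and MAP kinase cascade, the 12 of protein kinase C or the 25 of the AP-1 and EGR response had an SKBR3 EGF-only site in its body or within 10 kb of a start site, and neither did the 12 luminal breast markers. Over all 20098 protein-coding genes searched, 195 (0.970%) had such a site, so counts of 0 in lists of this size are near the background and are no result about the sites. SRC, a kinase that acts next to the receptor, did hold a site. Other SKBR3 EGF peaks touched 3 of the 15 ERBB and ligand genes and 5 of the 12 protein kinase C genes.

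Very long genes and genes of adhesion were among those that did. Of 38 synaptic adhesion and other very long genes, 7 (18.4%) held a site, namely CNTN4, CNTNAP2, DMD, MACROD2, NTM, OPCML and MAGI2, and the median length in that list was 1156 kb. CDH4, CDH18, CTNNA3 and CTNND2 were 4 of 30 cadherins and catenins and PTPRD and PTPRT 2 of 20 receptor tyrosine phosphatases. GRIA1 was 1 of 26 glutamate receptors and SRC 1 of 27 JAK, STAT and SRC kinases. Other SKBR3 EGF peaks touched 28.9% of the very long genes and 30.0% of the cadherins and catenins, and 5.48% of all protein-coding genes.

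The scores in these and a few other signalling genes spanned a wide range. TIAM1 (421) and PREX1 (324.5), exchange factors that activate RAC, had strong sites. The site of MAGI2, a synaptic scaffold (169), and the stronger site of PTPRT (160.5) were also above 82, the median of the SKBR3 EGF-only sites. The weaker site of PTPRT (48.5) and those of CTNND2 (51), CDH18 (52.5), GRIA1 (48), CNTNAP2 (47), MACROD2 (39) and OPCML (7) lay below it. Of the sites in these genes and in those of the lists above, only those of PREX1 and DMD lay in H3K4me1 islands of both SKBR3 replicates.

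Chromosome 20 had the most SKBR3 EGF-only sites for its length. It held 48 SKBR3 EGF-only sites, 13.9% of them on 2.08% of the genome's length, which was 7.62 per 10 Mb. The next densest was chromosome 17. The other SKBR3 EGF peaks were also densest on chromosome 20, at 19.99 per 10 Mb with 5.79% of them there, and it held 8.59% of the SKBR3 vehicle-only peaks. The long arm of chromosome 20 had 44 sites among 112 SKBR3 EGF peaks (39.3%, interval 30.7 to 48.5%), and its short arm 4 among 62 (6.45%, 2.54 to 15.4%). The BT474 EGF list had 261 peaks on the long arm and 371 on the short arm. Since the rule uses BT474 peaks, the shares of the arms are descriptions only. Among the arms with the next highest shares were 9p with 5 of 16 (31.2%, 14.2 to 55.6%), 17q with 15 of 61 (24.6%, 15.5 to 36.7%), and 15q with 14 of 62 (22.6%, 13.96 to 34.4%), whereas chromosomes 18 and 4 held 1 and 3 sites.

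**Figure D3:**
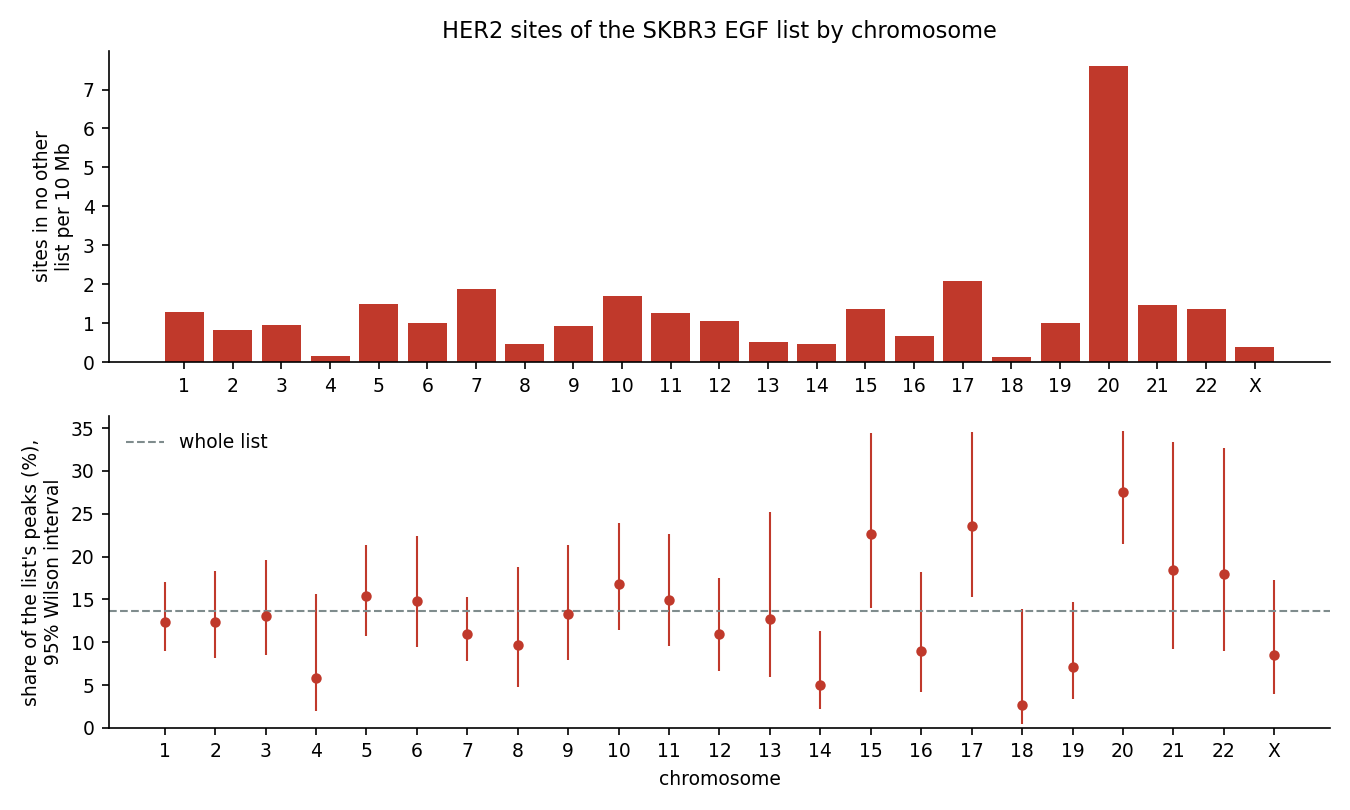
Top, SKBR3 EGF-only sites per 10 Mb of each chromosome (x axis); bottom, their share of the SKBR3 EGF peaks of the chromosome with 95% Wilson intervals, and the share in the whole list as a dashed line. Chromosome 20 reached 7.62 sites per 10 Mb.

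Many of the sites on 20q lay where BT474 had no HER2 peak at all. From chr20:50447428 to 57425139, over 6.98 Mb, both BT474 lists were empty, while SKBR3 EGF had 27 peaks and SKBR3 vehicle 37. Of the 27, 19 were SKBR3 EGF-only sites and the other 8 overlapped an SKBR3 vehicle peak. This stretch was picked out after the peaks had been counted. Genome-wide the BT474 EGF list has 10.3 peaks per Mb, and SKBR3 EGF 0.886 per Mb against 3.87 per Mb in the stretch. All BT474-free stretches of at least 1 Mb, 36 of them with 2.45% of the genome, held 26 SKBR3 EGF-only sites and 10 other SKBR3 EGF peaks. Since the rule uses BT474 peaks, an SKBR3 EGF peak in such a stretch was a member unless it overlapped an SKBR3 vehicle peak, and the split is a description only. Beside 20q they included 4 sites at the start of 15q and 1 site at SKA2 on 17q. A BT474 EGF peak was over 500 kb away from 20 SKBR3 EGF-only sites, of which 19 were on chromosome 20 and 1 on chromosome 17.

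Within that stretch the sites ran past LINC01524, LINC01440 and ENSG00000286006 to GCNT7, BMP7, ZBP1, NKILA, MIR4532, ANKRD60 and PIEZO1P2. The strongest were in PIEZO1P2 (408) and ANKRD60 (405), at GCNT7 (373.5) and 23.8 kb from ENSG00000286006 (340.5, the site with the core shown above). Their median score was 165 (quartiles 123 to 226.5) and their median width 239 bp, against 75.5 (43.5 to 134.5) and 200 bp for the 297 SKBR3 EGF-only sites off chromosome 20. The 25 other sites on 20q had a median score of 116.5. High values were not particular to the sites of the stretch. The SKBR3 EGF peaks outside the set had a median score of 159.75 and a median width of 235 bp on chromosome 20. On the other chromosomes these peaks had medians of 134.5 and 219 bp.

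The density of H3K4me1 reads was used as a stand-in for copy number, since the input libraries were not analysed here. It was taken as reads per kb of island in 1 Mb bins, relative to the median of the 1530 bins with at least 50 kb of island in all 4 libraries, and a bin at 2 times the median or more was called dense. In the 20q stretch the relative density was 1.57 and 1.55 in the SKBR3 replicates and 2.25 and 2.26 in the BT474 replicates. The authors removed regions of high input in each line separately, and whether that emptied the BT474 lists there was not tested.

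None of the 206 SKBR3 EGF-only sites in the bins used lay in a bin dense in SKBR3 (interval 0 to 1.83%). There were 17 such bins, 14 of them on chromosome 8, 2 on chromosome 17 and 1 on chromosome 20. The whole SKBR3 EGF list had 1 peak there and the SKBR3 vehicle list 1, while the BT474 EGF list had 182. The other 139 sites lay in bins with too little island for this measure, among them 1 site on chromosome 8, from 91 to 92 Mb, where the relative density was 2.36 and 2.68 in the SKBR3 replicates. The 9 bins dense in BT474 but not in SKBR3 held 16 SKBR3 EGF-only sites, 5 of them in 5 bins that were under 1.5 times the median in SKBR3 and 11 in 4 bins that lay between, and 5 other SKBR3 EGF peaks. Several of these bins had no BT474 HER2 peak, and there the rule itself makes an SKBR3 EGF peak a member unless SKBR3 vehicle has it, so nothing is read from this split. At the lower limit of 1.5 times the SKBR3 median, 20 SKBR3 EGF-only sites (5.797%, interval 3.78 to 8.78%) and 38 other peaks (1.75%, 1.28 to 2.39%) lay in 45 bins, and 15 of the 20 were on chromosome 20.

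**Figure D4:**
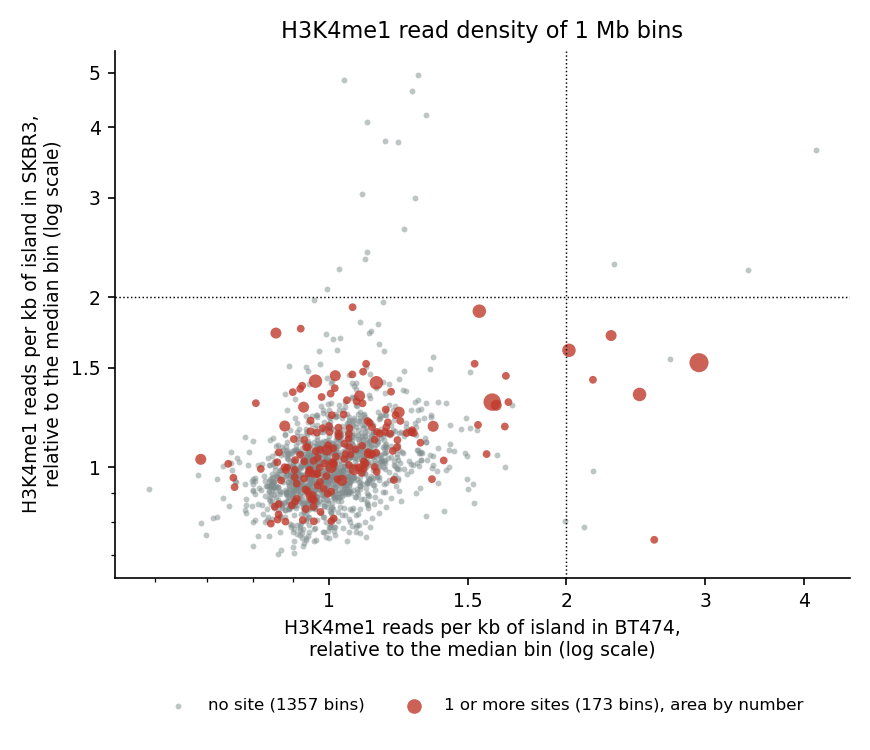
Relative H3K4me1 read density of 1530 bins of 1 Mb in BT474 (x axis) and SKBR3 (y axis), both on log scales, with bins that hold SKBR3 EGF-only sites in red, sized by their number, and a dotted line at 2 times the median. No red bin lies above the line for SKBR3, and the bin with the most sites, 6, lies at 2.95 in BT474 and 1.53 in SKBR3.

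H3K4me1 covered few of the SKBR3 EGF-only sites. Islands of the SKBR3 replicates overlapped 47 and 48 of the 345 sites, a mean of 13.8% ± 0.205 (SD, n = 2), and islands of the BT474 replicates 39 and 37, a mean of 11.01% ± 0.410 (SD, n = 2). No island of any library touched 279 sites (80.9%, interval 76.4 to 84.7%), 27 lay in islands of all 4 libraries, 14 in both SKBR3 libraries alone and 7 in both BT474 libraries alone.

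The other SKBR3 EGF peaks lay in islands slightly more often, at 15.5% ± 0.293 in SKBR3 and 12.6% ± 0.585 in BT474 (SD, n = 2). The share of SKBR3 EGF-only sites minus that of the other peaks was -1.64 percentage points in SKBR3 replicate 1 and -1.77 in replicate 2, a mean of -1.70 ± 0.0876 (SD, n = 2), which was small beside the intervals of the shares themselves (10.4 to 17.6% for the sites in replicate 1). At the SKBR3 EGF-only sites the share in SKBR3 exceeded that in BT474 by 2.75 points, with both SKBR3 libraries above both BT474 libraries. The two-sided exact permutation test gave p = 0.333 with 2 against 2 libraries, the smallest p the design allows. The other peaks, which are by definition shared with another list, showed a difference of 2.83 points.

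**Figure D5:**
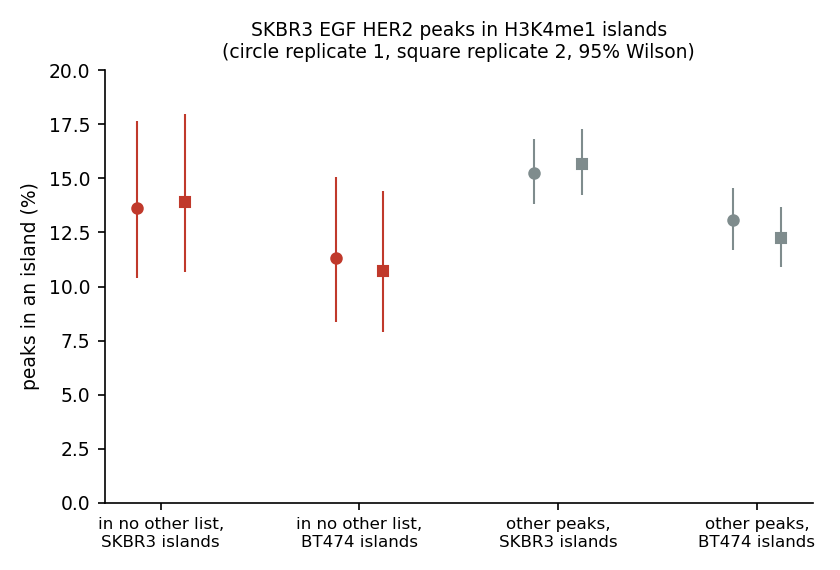
Share of SKBR3 EGF HER2 peaks (%, y axis) in an H3K4me1 island of each SKBR3 or BT474 replicate, for SKBR3 EGF-only sites (red) and the other peaks (grey), with 95% Wilson intervals. The sites stood at 13.8% on average in SKBR3 and 11.01% in BT474, and the other peaks at 15.5% and 12.6%.

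On chromosome 20 the share was higher. Of its 48 SKBR3 EGF-only sites, 12 (25%) lay in islands of each SKBR3 replicate and 13 and 11 in islands of the BT474 replicates, whereas off chromosome 20 the shares were 11.8 and 12.1% in SKBR3 and 8.75% in each BT474 replicate. The other SKBR3 EGF peaks on chromosome 20 stood at 18.3 and 21.4% in SKBR3.

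The strongest of the 41 sites in islands of both SKBR3 replicates was in PARD6B, with 6.27 and 5.803 reads per kb of island per 1000000 island reads in SKBR3 and 6.53 and 6.62 in BT474. PARN, a poly(A)-specific ribonuclease, followed with a score of 365.5 and 3.22, 3.27, 3.06 and 3.00 in the same order. These reads per kb of island were close in both lines at PARD6B and PARN. The PARD6B island was wider in BT474, at 36.8 and 38.8 kb against 17.4 and 17.6 kb in SKBR3. Reads over the merged regions described below differed at both. The log2 fold change, SKBR3 minus BT474, was -0.51 at PARD6B (edgeR adjusted p = 1.85e-04) and 0.48 at PARN (edgeR adjusted p = 0.0145). MRPL33, a mitochondrial ribosomal protein (score 334.5), had 3.32 and 3.43 in SKBR3 and no BT474 island at the site. PREX1 had 4.25 and 4.72 in SKBR3 and 7.74 and 8.60 in BT474, in islands of 7.2 and 7.4 kb in SKBR3 and 202 and 188 kb in BT474. Near BMP7, a growth factor of the TGF-beta family, the SKBR3 values were 3.75 and 4.37 and the BT474 values 5.10 and 4.78. So the islands at PREX1 and BMP7, both on 20q, were broader in BT474, the line in which no HER2 peak was listed at these sites.

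The other 5 of the 10 strongest such sites were in ENTREP2 (191.5) and VILL, a villin-like protein of the actin skeleton (153), 4.87 kb from ZBP1, a sensor of nucleic acids (178.5), 80.8 kb from MIR4532 (169.5) and 1.62 kb from KRT9 (167.5). BT474 islands were missing at VILL, ZBP1 and KRT9. The site near KRT9 was also the one within 10 kb of a start site of KRT14, a keratin of basal cells, whose body was covered by H3K4me1 islands over 83.8% of its length in each SKBR3 replicate and 0% in BT474.

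Reads in H3K4me1 islands were compared between the lines by edgeR's quasi-likelihood test over 37219 merged regions with an island in all 4 libraries. Of the SKBR3 EGF-only sites 43 lay in 40 such regions, and 32 of the 40 were called at an adjusted p under 0.05, 15 higher and 17 lower in SKBR3. Over all regions tested, 61.9% were called, 31.4% higher and 30.5% lower in SKBR3. The median log2 fold change, SKBR3 minus BT474, was -0.09 over the 40 regions and 0.01 over all regions. The balance turned with the filter. Regions with an island in at least 2 libraries gave 25 higher and 20 lower of 59 (42.4% and 33.9%, median 0.11). Those with at least 200 reads gave 14 and 14 of 32 (43.75% each, median 0.10). Over all regions, the first filter gave 27.5% higher and 43.3% lower (median -0.50), and the second 38.9% and 38.7% (median -0.02). With an island in all 4 libraries, the 288 regions that held other SKBR3 EGF peaks had 118 higher and 84 lower. Sites whose regions lacked an island in any library were not tested, so the 40 regions are not all sites.

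The largest differences lay on both sides. The region over SKA2, 76.2 kb long, had 13.2 and 15.5 reads per 1000000 island reads (CPM) in SKBR3 and 585 and 588 in BT474, a log2 fold change of -5.35 (SE 0.09, edgeR adjusted p = 2.79e-08), and its bin was dense in BT474 alone. At CUTALP, a pseudogene, the log2 fold change was -3.19 (SE 0.17, edgeR adjusted p = 3.58e-06), from 5.17 and 7.36 CPM in SKBR3 to 60.1 and 54.5 in BT474. C1QTNF1, a secreted protein of the adiponectin family, had 324 and 356 CPM in SKBR3 and 55.3 and 52.4 in BT474 (log2 fold change 2.66, SE 0.08, edgeR adjusted p = 2.69e-07). The libraries of the lines did not overlap at any of these 3 regions, which were picked for their large differences, so this is no separate result.

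Regions at RASSF5, a RAS effector (2.36), VILL (2.22) and MRPL33 (1.63) were also higher in SKBR3, and those at SULF2, an extracellular sulfatase (-1.95), COPB2, a coatomer subunit (-1.76), the 447 kb region with 4 sites near MIR4532, AL354984.3 and NKILA (-1.58) and GNA13, a G protein alpha subunit (-1.57), were lower, as log2 fold changes with edgeR adjusted p from 5.02e-07 to 2.49e-04. Of the 9 regions with sites on chromosome 20, 6 were lower in SKBR3 and 1 higher, with a median log2 fold change of -0.93, while over all 1044 regions tested on chromosome 20, 276 were lower and 438 higher (median 0.27). In the 20q stretch without BT474 HER2 peaks, 30 of 43 regions tested were lower in SKBR3 and 5 higher (median -1.04). Off chromosome 20, 14 of the 31 regions with sites were higher and 11 lower.

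H3K4me1 over marker genes was used to check the labelled cell lines. Each library had between 15.1 and 18.7 times 1000000 reads in islands. ERBB2 was covered over 97.4% and 100% of its body in SKBR3 and BT474 on average, and GRB7 over 100% in both. Of the other luminal markers, SPDEF (87.5%), KRT19 (66.8%), TFAP2B (66.0%) and KRT8 (64.7%) were covered over most of their bodies in SKBR3 on average. In BT474 these markers stood at 86.5, 36.9, 10.0 and 63.0%. ESR1 was covered over 19.2% in SKBR3 and 26.8% in BT474, and KRT18 over 8.55 and 56.7%. CDH1, GATA3 and FOXA1 had no SKBR3 island, and stood at 57.8, 54.5 and 12.6% in BT474. PGR was covered over 2.97% in SKBR3 and 87.6% in BT474. Markers of other cell types were not free of islands, since all 9 found in the annotation had some in at least 1 SKBR3 replicate, from a mean of 3.82% for COL1A1 to 83.8% for KRT14, and 7 of the 9 in BT474. Depth behind the HER2 sites is unknown, since their lists give only a score, and whether a site absent from a list was unbound or below that list's threshold cannot be told apart.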

How the data were processed

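HER2 was mapped by ChIP-exo in both lines with and without EGF (1 list for every condition), and the H3K4me1 mark was mapped with 2 replicates per line. The authors aligned single-end reads of 36 bp to GRCh37, called HER2 peaks with MACS and deposited for each peak a score whose scale is not stated. The authors called H3K4me1 islands with SICER 1.1 and deposited the read count of each island, not scaled for depth. Per the labels the tools also include BWA 0.5.9 and MACS 1.4.1, whereas the study's methods describe bowtie2 and MACS2. Regions on the ENCODE blacklist and regions of high input in each line were removed by the authors. Both input samples were not analysed here.

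SKBR3 EGF peaks that overlapped no peak of the other 3 lists by 1 bp were the SKBR3 EGF-only sites. The sites and gene lists were chosen with earlier results of these data known. Genes came from GENCODE (64486 genes) and sequences from the GRCh37 genome. Shares carry 95% Wilson intervals, which reflect counting error alone. Islands of the 4 libraries were merged, reads were summed over the 37219 regions with an island in all 4, and the lines were compared with edgeR 4.0.16 (quasi-likelihood, TMM, Benjamini-Hochberg) in R 4.3.3, with DESeq2 1.42.0 as an alternative. On simulated counts for this comparison over 37219 regions, 16% of 1.5-fold, 78% of 2-fold and 100% of 4-fold changes were recovered. The simulation changed few regions and used the same dispersion for all, whereas 61.9% of regions were called in the data. So these rates need not hold for the data. Same-numbered replicates did not deviate together (r = -0.04 across regions, which are not independent replicates), so the numbers do not pair the libraries. Replicates of a line differed beyond sampling noise, with a chi-square per degree of freedom of 12.9 in SKBR3 and 7.02 in BT474 over 1615 regions.

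Named sites were the 20 with the highest score, those within 1 kb upstream of a protein-coding start site, the 10 strongest in islands of both SKBR3 replicates, those in genes with at least 2 sites, those at genes of the lists, and the 10 with the largest called H3K4me1 difference. The sites near a gap threshold, the stretch on 20q and its sites, and the leading words were named after their values were seen. A few genes, gene lists and sequences chosen by this rule are not reported here.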

Additional observations from a re-analysis of the deposited data

How the results depend on the processing

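The other lists set the number of SKBR3 EGF-only sites: with each cut to its top peaks by score, so that no list was longer than that of SKBR3 EGF, there were 1245 sites, with a median percentile of 39.0, 14.4% in SKBR3 islands, 6.75% with the core, 0.402% in bins dense in BT474 alone and 799 genes within 10 kb. The share in SKBR3 islands was 13.5593% with under 50% of a peak covered by another list, 13.5569% with no other peak within 100 bp, 14.2% with none within 1 kb, 11.2% for islands with at least the median read count, 15.7% for an island in either replicate and 11.9% in both. The share minus that of the other peaks was -1.95314, -1.94613 and -1.14 points under the first 3 of these, -0.991 with the midpoint inside the island and -0.197 for islands with at least the median read count. With protein-coding genes alone, 3.19% of sites lay upstream, 41.4% in introns, 53.0% in intergenic sequence, and 97 genes lay within 10 kb. Within 5 kb upstream the share was 20.9%, and start sites within 5 and 50 kb gave 136 and 855 genes. Bins dense in SKBR3 held 5.797% at 1.5 times the median and 1.16% with 2 Mb bins, and those dense in BT474 alone 4.93% at 1.5 times, 0% at 3 times and 4.35% with 2 Mb bins. The cause of these shifts was not tested.

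Leaving out a replicate gave 13.6 to 13.9% of sites in SKBR3 islands, -1.77 to -1.64 points from the other peaks and 2.46 to 3.04 points between the lines. The median log2 fold change was then -0.194 to -0.101 over the 40 regions with sites and -0.004 to 0.014 over all regions. With a replicate block, which these numbers do not support as pairing, the difference between the lines was 2.75 points (SD 0.615, exact permutation p = 0.5). With this block edgeR called 32 of the 40 regions (80%), 13 higher and 19 lower, against 61.2% of all regions. DESeq2 called 29 (72.5%), 12 higher and 17 lower, against 51.9% of all regions. With an island in at least 2 libraries edgeR called 45 of 59 (76.3%), 25 higher and 20 lower, against 70.8% of all regions. With at least 200 reads it called 28 of 32 (87.5%), 14 each way, against 77.6% of all regions. Under these filters the sign of the median at the sites turned from -0.09 to 0.11 and 0.10 (the cause was not tested). For the 10 named regions, 90 of 90 alternatives kept the direction and the call. These regions were picked as the called ones with the largest differences, and the alternatives used the same libraries. The choice made that outcome likely, so nothing is read from it. Each HER2 condition had 1 library, so no replicate error can be given for the lists.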
